A study of Mus musculus with 6 samples.

Results

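The genes described here are the extracellular and receptor end of the Wnt pathway in mouse stomach corpus. They are the Wnt ligands, the R-spondins, the Frizzled receptors, the co-receptor genes Lrp5 and Lrp6, the ligand-processing genes Porcn and Wls, and the secreted antagonists of the Sfrp and Dkk families with Frzb. They were picked by gene symbol, with earlier results of these data known. Of the 18988 rows of the deposited expression table, 46 carried such a symbol. RNA sequencing was done on the corpus of 6 C57BL/6 mice, each giving 1 library. The 3 controls had the genotype Ras;APC FF (replicates 1 to 3), and the 3 others, called PGC mice from here, had PGC;Ras;APC FF (replicates 4 to 6). Ras and APC FF are thus common to all 6 mice, and PGC is what the groups differ by. The labels do not spell out the alleles, do not name the promoter or cell type that drives any of them, and give no age or sex.

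Wnt proteins are secreted lipid-bearing signals: Porcn attaches the lipid and Wls carries the protein to the cell surface. At the receiving cell they join a Frizzled with Lrp5 or Lrp6, which stops the Apc-containing destruction complex from degrading beta-catenin. R-spondins strengthen the signal by keeping Frizzleds on the surface, Sfrp proteins bind Wnts outside the cell, and Dkk1, Dkk2 and Dkk4 block the co-receptors. In the stomach, stromal cells under the glands supply Rspo3 and several Wnts to the epithelium. Loss of Apc stabilises beta-catenin without a ligand.

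In PGC corpus the ligand pool was larger than in controls, and the shares of its less abundant genes differed. Wnt11, Wnt4 and Wnt5a led the pool in every library. Wnt6, Wnt10a, Wnt7a, Wnt7b, the receptor gene Fzd10 and the antagonist genes Dkk2 and Dkk4 were below 1 FPKM or listed at 0 in controls and higher in all 3 PGC libraries. The better expressed ligand genes Wnt5a, Wnt4 and Wnt11 stood about 1 log2 unit higher. Rspo3, Sfrp1 and Wnt9a stood lower in all 3 PGC libraries. No member passed the test over all genes with all 6 libraries, so these are differences between the 6 mice described by their values.

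Values are FPKM, which divide the fragments of a gene by its length and by the library total, so that levels can be set side by side between genes. Differences were tested with limma on log2(FPKM + 1), which understates the change of genes at low levels, over the 11857 genes with at least 1 FPKM in at least 3 of the 6 libraries. Of the 46 members, 25 met this filter and 21 did not. Fzd10 and Wnt6 met it through the PGC libraries alone, so for them a difference was built into the filter. At a limma adjusted p of 0.05, 0 of the 25 members were called in either direction, against 0.11% of all tested genes higher and 0.0422% lower. At an unadjusted limma p under 0.05, 9 members were higher and 3 lower, against 31.8% and 3.63% of all tested genes. The groups did not overlap for 9 members on the higher side and 3 on the lower side. That is 36% and 12% of the tested members, against 42.7% and 5.47% of all tested genes, and the share on the higher side is no larger than the background. Median-of-ratios scaling lowered the median log2 change over the tested genes from 0.26 to -0.01. Under it the members split into 8 higher and 7 lower (32% and 28%), against 17.6% and 17.5% of all tested genes. Both member shares were thus above the background there, a difference that was not tested. Without this scaling, 16 of the 25 members had a positive log2 change (64%), against 80.6% of all tested genes. The median of the members was 0.10. With replicate 6 left out, 2 members were called higher (Lrp5 and Wnt5a) and 1 lower (Rspo3), against 7.17% and 0.914% of all tested genes. With replicate 5 left out, 3 were called higher (Dkk3, Wnt4 and Wnt5a) and 0 lower, against 3.54% and 0.386%. An exact two-sided test of 3 against 3 mice cannot give a p below 0.1.

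Some facts of the libraries touch these results. Depth in reads is unknown, and summed FPKM lay between 664821 and 804774. The chief cell gene Pgc ranged from 140325 to 194208 FPKM over the controls and was at 87455, 78757 and 16059 FPKM in replicates 4 to 6, lower in all 3 and lowest in replicate 6. The other chief markers did not share this. Pga5 was at 30.36 to 39.88 FPKM in controls and higher in replicates 4 to 6 (59.49, 69.54 and 46.70), and Gif and Bhlha15 overlapped between the groups. Parietal and chief markers of the corpus were present in every library. Replicate 3 was the one library with the Y-linked gene Eif2s3y (13.15 FPKM), and Xist was listed at 0 there, so sex was not balanced between the groups. In bulk tissue, fewer cells of a type and less RNA per cell cannot be told apart.

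**Figure D1:**
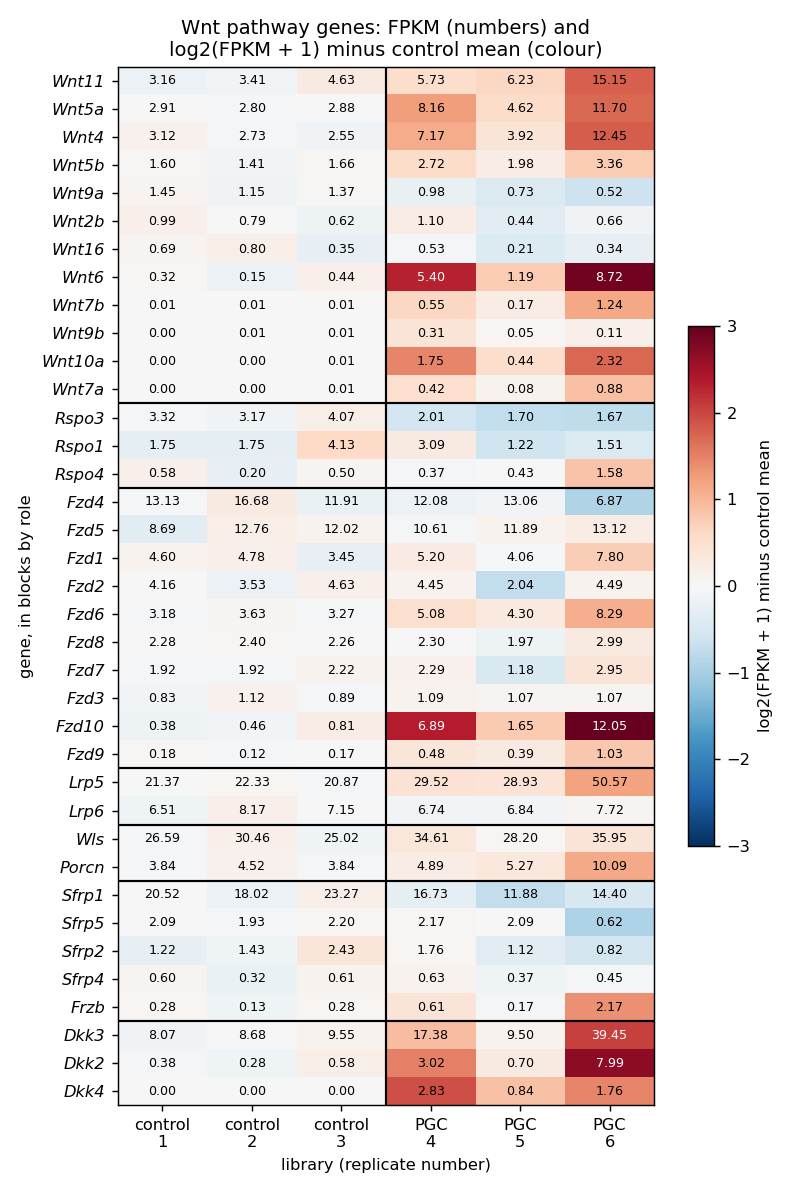
Heat map of the members that reached 0.3 FPKM in at least 1 library, in rows by role, over the 6 libraries in columns. Numbers are FPKM, and colour is log2(FPKM + 1) minus the mean of the 3 controls. Wnt6, Fzd10, Dkk2 and Dkk4 change colour in the PGC columns, with replicate 5 the palest for each of these 4.

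The start site windows of the 2 tested genes with the largest changes, Wnt6 and Fzd10, are shown with the 2 tested ligand genes whose windows held a TCF/LEF motif. TCF/LEF proteins are the DNA-binding partners of beta-catenin. Capitals mark the motif, CTTTGAT or CTTTGAA on either strand, and each window runs from 250 bases before to 50 bases after a RefSeq start site of GRCm38.p6, the assembly of mm10, 5′ to 3′ along the gene.

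Wnt6 (chr1:74771642-74771941, plus strand): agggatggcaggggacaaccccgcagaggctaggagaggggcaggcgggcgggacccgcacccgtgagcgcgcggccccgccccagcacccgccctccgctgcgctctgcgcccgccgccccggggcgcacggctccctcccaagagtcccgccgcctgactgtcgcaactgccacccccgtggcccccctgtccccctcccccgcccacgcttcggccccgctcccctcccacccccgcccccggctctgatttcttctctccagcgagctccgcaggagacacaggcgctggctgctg

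Fzd10 (chr5:128600856-128601155, plus strand): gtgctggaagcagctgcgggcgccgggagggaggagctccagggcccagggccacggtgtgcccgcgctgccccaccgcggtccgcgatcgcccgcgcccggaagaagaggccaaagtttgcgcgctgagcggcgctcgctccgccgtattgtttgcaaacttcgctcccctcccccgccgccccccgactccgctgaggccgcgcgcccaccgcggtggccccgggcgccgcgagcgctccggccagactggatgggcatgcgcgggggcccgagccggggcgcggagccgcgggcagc

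Wnt11 (chr7:98834862-98835161, plus strand): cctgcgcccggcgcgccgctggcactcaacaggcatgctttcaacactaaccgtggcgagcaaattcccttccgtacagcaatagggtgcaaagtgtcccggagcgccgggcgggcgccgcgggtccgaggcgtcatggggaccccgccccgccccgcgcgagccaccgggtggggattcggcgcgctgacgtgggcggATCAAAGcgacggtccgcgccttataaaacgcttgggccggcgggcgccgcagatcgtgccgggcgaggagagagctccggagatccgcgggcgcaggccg

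Wnt5b (chr6:119449337-119449636, minus strand): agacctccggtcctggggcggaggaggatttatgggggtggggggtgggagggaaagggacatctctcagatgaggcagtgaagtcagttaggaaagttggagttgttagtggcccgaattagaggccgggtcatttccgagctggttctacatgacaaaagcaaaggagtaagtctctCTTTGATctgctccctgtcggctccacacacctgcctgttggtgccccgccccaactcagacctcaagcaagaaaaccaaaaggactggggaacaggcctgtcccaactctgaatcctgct

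The Fzd10 window begins 12 bases inside the gene as GENCODE M21 annotates it, so it lies downstream of that start. The Wnt6 and Fzd10 windows held none of these letters and were 76.7% and 77.7% GC. In Wnt11 the motif began 51 bases before the start site, and in Wnt5b it began 71 bases before an internal start site. Member windows on chromosome 18, where Fzd8 and Wnt8a lie, were left out of the count. Apart from these, RefSeq windows were found for 29 of the 46 members. Of their 32 windows 3 held the motif, the third being that of Dkk1, which was at or near 0 FPKM in every library. That is 9.38% of the member windows counted, against 8.65% of all 32851 windows, among which chromosome 18 was kept.

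Summed over all 19 ligand genes, controls had 14.42, 13.32 and 14.68 FPKM, and PGC replicates 4 to 6 had 35.14, 20.13 and 57.94. All 3 PGC libraries lay above the controls, with replicate 5 closest to them. Of the 6 tested ligand genes, 5 had a positive log2 change and 0 passed over all genes. A positive change was also found for 80.6% of all tested genes. In addition, 5 ligand genes below the filter were higher in every PGC library than in every control, as were 31.9% of all 18988 rows.

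Wnt5a, the main ligand of beta-catenin-independent signalling, was at 2.91, 2.80 and 2.88 FPKM in the controls and 8.16, 4.62 and 11.7 in PGC mice. The controls were almost equal and every PGC library was above them. The log2 change was 1.17 ± 0.27 (SE), with a limma adjusted p of 0.085, and 0.0416 without replicate 6, where Wnt5a rose by 0.89 on the log2 scale. Leaving out replicate 5 also brought it past the threshold (log2 change 1.48, limma adjusted p = 0.00972).

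Wnt4, which acts in kidney and reproductive tract development, was at 3.12, 2.73 and 2.55 FPKM in the controls and 7.17, 3.92 and 12.45 in PGC mice. The groups did not overlap, and replicate 6 was the highest. Its log2 change was 1.10 ± 0.33 (SE; limma adjusted p = 0.0901), and 1.47 without replicate 5 (limma adjusted p = 0.0216).

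Wnt11, a ligand of cell movement and polarity, was at 3.16, 3.41 and 4.63 FPKM in the controls and 5.73, 6.23 and 15.15 in PGC mice. Replicates 4 and 5 stood close to each other and replicate 6 far above. The log2 change was 0.98 ± 0.33 (SE; limma adjusted p = 0.0986), and 0.57 without replicate 6. Wnt5b, a close relative of Wnt5a, was at 1.60, 1.41 and 1.66 FPKM in the controls and 2.72, 1.98 and 3.36 in PGC mice. Here too the groups did not overlap, with a log2 change of 0.51 ± 0.16 (SE; limma adjusted p = 0.0954), and 0.30 after median-of-ratios scaling.

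Wnt6, a ligand of epithelial and mesodermal development, had the largest change among the tested ligand genes. It was at 0.32, 0.15 and 0.44 FPKM in the controls and 5.40, 1.19 and 8.72 in PGC mice. Replicates 4 and 6 were far above the controls and replicate 5 only modestly so. Group means were 0.303 ± 0.146 and 5.10 ± 3.77 FPKM (SD, n = 3 each), and the log2 change was 1.99 ± 0.48 (SE; limma adjusted p = 0.085). With a pseudocount of 0.1 in place of 1 it was 3.37.

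Wnt10a, known for tooth, hair and skin appendage development, lies next to Wnt6 on chromosome 1. Wnt6 spans 74771892 to 74785322 and Wnt10a 74791516 to 74804179, both on the plus strand, with 6.2 kb between them in GENCODE M21. Wnt10a was listed at 0, 0 and 0.01 FPKM in the controls and 1.75, 0.44 and 2.32 in PGC mice. As for Wnt6, replicate 5 was the lowest and replicate 6 the highest PGC library. With only 2 PGC libraries at 1 FPKM or more, Wnt10a did not meet the filter. Without a filter its log2 change was 1.23 ± 0.30 (SE; limma adjusted p = 0.137).

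Wnt7b, a ligand of lung and kidney epithelium, was at 0.01 FPKM in each control and at 0.55, 0.17 and 1.24 in PGC mice. Its relative Wnt7a, which acts in limb and reproductive tract patterning, was listed at 0, 0 and 0.01 FPKM in the controls and 0.42, 0.08 and 0.88 in PGC mice. Both thus had the same order of PGC libraries as Wnt6 and Wnt10a, at levels that stayed low. Wnt9b was at 0.31, 0.05 and 0.11 FPKM and Wnt10b at 0.10, 0.04 and 0.27 in PGC mice, against at most 0.01 and 0.03 in controls. These values are only a few steps above the 2 decimals of the table, and their size says little.

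The 4 pairs of ligand genes that lie within 50 kb of each other did not share one pattern. Wnt6 and Wnt10a were both higher in PGC mice. Wnt9b was higher while Wnt3, 24.3 kb away, reached at most 0.03 FPKM in any library. Wnt3a, 16.2 kb from Wnt9a, and Wnt1, 11.7 kb from Wnt10b, reached at most 0.01 and 0.02 FPKM.

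Wnt9a, which acts in joint formation, was the ligand gene on the lower side. It was at 1.45, 1.15 and 1.37 FPKM in the controls and 0.98, 0.73 and 0.52 in PGC mice. No PGC library reached the lowest control, and the log2 change was -0.42 ± 0.14 (SE; limma adjusted p = 0.1), or -0.79 with a pseudocount of 0.1. Among the rest, Wnt2b (0.62 to 0.99 FPKM in controls, 0.44 to 1.10 in PGC mice) and Wnt16 (0.35 to 0.80 and 0.21 to 0.53) overlapped between the groups. Wnt2 reached at most 0.17 FPKM. Wnt1, Wnt3, Wnt3a, Wnt8a and Wnt8b, 5 genes in all, stayed below 0.05 FPKM in every library.

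These differences changed the shares of the less abundant ligand genes in the pool. Wnt11, Wnt4 and Wnt5a were the leading 3 in every library, and each kept a share of 16.3% to 30.9% of the summed ligand FPKM in PGC mice. Wnt6 made up 1.13% to 3.00% of the pool in controls and 15.4%, 5.91% and 15.1% in replicates 4 to 6. Wnt10a went from at most 0.0681% to 4.98%, 2.19% and 4.00%. In the other direction Wnt9a went from 8.63% to 10.1% in controls to 2.79%, 3.63% and 0.897%, and Wnt2b from 4.22% to 6.87% to 3.13%, 2.19% and 1.14%. Shares within a pool are tied to each other, so a smaller share is not a lower level.

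**Figure D2:**
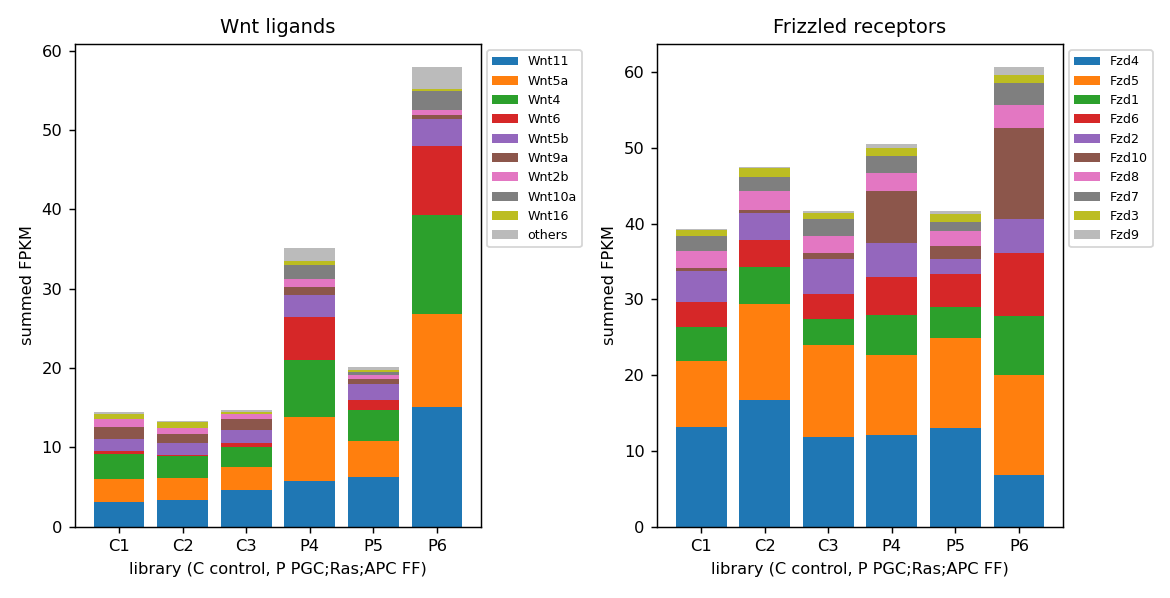
Stacked bars of summed FPKM per library for the 19 ligand genes (left) and the 10 Frizzled genes (right), with C for control and P for PGC;Ras;APC FF. The ligand bars run from 13.32 to 14.68 FPKM in controls and from 20.13 to 57.94 in PGC mice, and the Fzd10 segment grows in P4 and P6.

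On the sending side, Wls was at 26.59, 30.46 and 25.02 FPKM in the controls and 34.61, 28.20 and 35.95 in PGC mice, and the groups overlapped. Its log2 change of 0.26 ± 0.15 (SE; limma adjusted p = 0.232) was that of the median gene, and its sign turned after median-of-ratios scaling (-0.05) and quantile normalization. Porcn was at 3.84, 4.52 and 3.84 FPKM in the controls and 4.89, 5.27 and 10.09 in PGC mice. The groups did not overlap, although replicate 6 held most of the difference (log2 change 0.55 ± 0.24 SE, limma adjusted p = 0.144). Its change was 0.29 after median-of-ratios scaling and 0.27 without replicate 6.

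Among the 10 Frizzled genes, Fzd10 stood out in size. It was at 0.38, 0.46 and 0.81 FPKM in the controls and 6.89, 1.65 and 12.05 in PGC mice. The order of the PGC libraries was again replicate 5, 4, 6, and every one was above the controls. Means were 0.550 ± 0.229 and 6.86 ± 5.20 FPKM (SD, n = 3 each), and the log2 change was 2.08 ± 0.51 (SE; limma adjusted p = 0.085). Fzd10 lies on chromosome 5, 128600844 to 128604093, plus strand.

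Fzd6, a receptor of planar cell polarity, was at 3.18, 3.63 and 3.27 FPKM in the controls and 5.08, 4.30 and 8.29 in PGC mice. The groups did not overlap (log2 change 0.62 ± 0.21 SE, limma adjusted p = 0.101), and the change was 0.36 after median-of-ratios scaling and 0.38 without replicate 6. Fzd9, below the filter, was at 0.18, 0.12 and 0.17 FPKM in the controls and 0.48, 0.39 and 1.03 in PGC mice, again without overlap.

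The most abundant Frizzled genes of control corpus did not follow. Fzd5, a receptor of gut epithelium, was at 8.69, 12.76 and 12.02 FPKM in the controls and 10.61, 11.89 and 13.12 in PGC mice. Fzd4, the receptor of norrin in blood vessels, was at 13.13, 16.68 and 11.91 FPKM in the controls and 12.08, 13.06 and 6.87 in PGC mice. Both overlapped between groups, and for Fzd4 replicate 6 alone was low. In that library the parietal markers Atp4a, Atp4b and Kcne2 were at 427.68, 723.32 and 14.59 FPKM. The other 5 libraries had 1768.04 to 2884.49, 3130.54 to 4614.23 and 58.09 to 98.92. Atp4b and Kcne2 were below every control in replicates 4 and 5 too. Gif, listed with both parietal and chief markers, was at 557.97 FPKM, against 1270.77 to 2890.40. Pgc (16059 FPKM, against 78757 to 194208) and the adipocyte marker sum (31.86, against 59.2 to 122.1) were also lowest there. So was the chief marker Bhlha15 (5.31, against 12.06 to 19.54), while the chief marker Pga5 (46.70) was above every control. In the same library the 6 endothelial markers summed to 47.53 FPKM, against 38.62 to 43.67. The part of cell makeup in the Fzd4 value was not tested.

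The other Frizzled genes overlapped between the groups as well. Fzd1 was at 3.45 to 4.78 FPKM in controls and 4.06 to 7.80 in PGC mice, and Fzd2 at 3.53 to 4.63 and 2.04 to 4.49. Fzd7 was at 1.92 to 2.22 and 1.18 to 2.95 FPKM, Fzd8 at 2.26 to 2.40 and 1.97 to 2.99, and Fzd3 at 0.83 to 1.12 and 1.07 to 1.09. Fzd2 and Fzd7 were lowest in replicate 5. The log2 changes of Fzd3, Fzd5, Fzd7 and Fzd8, all between 0.02 and 0.10, turned negative under median-of-ratios scaling and quantile normalization, so no direction is given for them.

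In shares of the summed Frizzled FPKM, Fzd4 and Fzd5 together led in every control. Fzd4 held 28.6% to 35.2% there, and 23.9%, 31.4% and 11.3% in replicates 4 to 6. Fzd10 held 0.966% to 1.95% in controls and 13.7%, 3.97% and 19.9% in replicates 4 to 6. In replicate 6 it was thus second to Fzd5 (21.6%).

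Of the co-receptor genes, Lrp5 was at 21.37, 22.33 and 20.87 FPKM in the controls and 29.52, 28.93 and 50.57 in PGC mice. All PGC libraries lay above the narrow control range (log2 change 0.68 ± 0.22 SE, limma adjusted p = 0.0954). Without replicate 6 Lrp5 rose by 0.43 on the log2 scale (limma adjusted p = 0.0456). Lrp6 was at 6.51, 8.17 and 7.15 FPKM in the controls and 6.74, 6.84 and 7.72 in PGC mice. The 2 co-receptor genes thus had different patterns, although the difference between them was not tested, and after median-of-ratios scaling Lrp5 kept a log2 change of 0.38 while that of Lrp6 was -0.31. All 6 epithelial markers (Epcam, Cdh1, 3 keratins and Cldn18) were higher in every PGC library too, as were 42.7% of all tested genes. These markers summed to 2720 to 3175 FPKM in controls and 4483 to 6747 in PGC mice. Of the 6 markers, 0 had the PGC library order of Lrp5, which ran from replicate 5 through 4 to 6. Replicates 5 and 4 were nearly equal for Lrp5 (28.93 and 29.52 FPKM), so that order says little. Lrp5 and all 6 markers were highest in replicate 6. The part of the epithelial markers in the Lrp5 value was not tested.

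**Figure D3:**
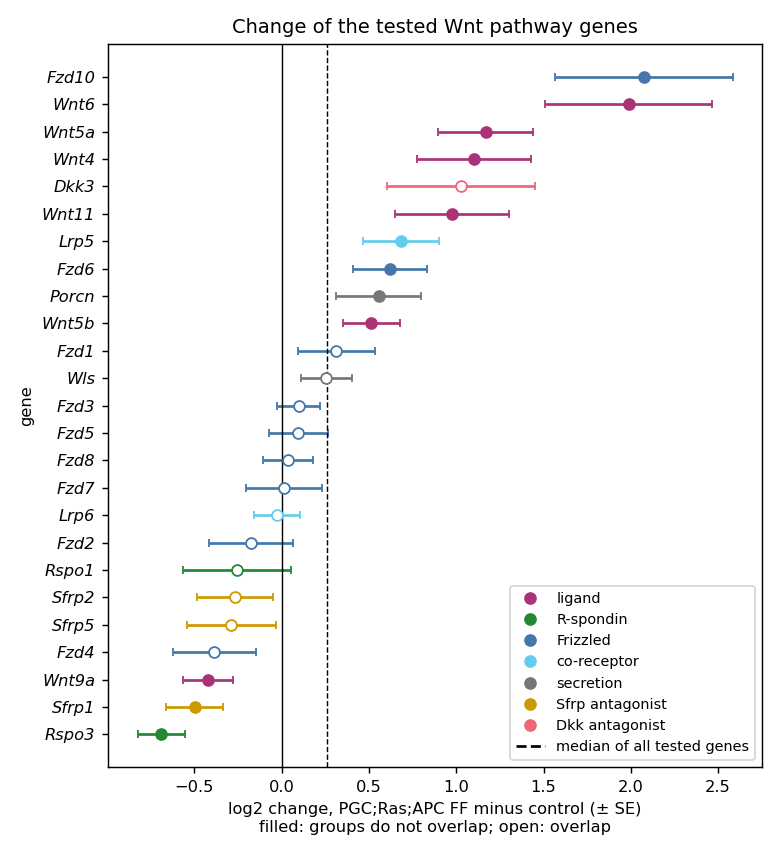
Log2 change (PGC;Ras;APC FF minus control, on log2(FPKM + 1), dots with SE) of the 25 tested members, coloured by role, with filled dots where the groups do not overlap. Fzd10 (2.08) and Wnt6 (1.99) lie farthest to the right and Rspo3 (-0.69) farthest to the left, and the dashed line is the median of all tested genes (0.26).

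Rspo3 had the lowest unadjusted p of the 25 tested members. With no filter, or one at 0.5 FPKM, that of Dkk4 was lower. It was at 3.32, 3.17 and 4.07 FPKM in the controls and 2.01, 1.70 and 1.67 in PGC mice. The PGC libraries were close together and all were below the controls. Means were 3.52 ± 0.482 and 1.79 ± 0.188 FPKM (SD, n = 3 each), and the log2 change was -0.69 ± 0.14 (SE; limma unadjusted p = 0.00102, adjusted p = 0.085). Without replicate 6 Rspo3 fell by 0.66 on the log2 scale (limma adjusted p = 0.0351). Rspo3 spans 29452416 to 29535867 on the minus strand of chromosome 10.

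Rspo1 was at 1.75, 1.75 and 4.13 FPKM in the controls and 3.09, 1.22 and 1.51 in PGC mice. The groups overlapped, and replicates 3 and 4 stood above the other 4 libraries. The same 2 libraries were the highest for the mesothelial markers Upk3b (2.40 and 3.78 FPKM, against 0.20 to 1.50 in the others) and Wt1 (0.31 and 0.59, against 0.03 to 0.17). The other two mesothelial markers had another order: Msln was highest in replicates 6 and 4 (5.80 and 3.17 FPKM, with 1.08 in replicate 3), and Lrrn4 in replicates 4 and 5 (0.92 and 0.61, with 0.43 in replicate 3). All 4 mesothelial markers summed to 0.51 to 4.22 FPKM in controls and 3.43 to 8.46 in PGC mice, and their part in the Rspo1 values was not tested. Rspo4 was at 1.58 FPKM in replicate 6 and at 0.20 to 0.58 elsewhere. Rspo2 reached at most 0.16 FPKM.

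The R-spondin receptor genes and the ligases they act on were not lower alongside Rspo3. Of Lgr4, Lgr5, Lgr6, Znrf3 and Rnf43, 4 were tested, all 4 had positive log2 changes and 0 passed over all genes. Lgr4, the most abundant, was at 22.02 to 29.02 FPKM in the controls and 27.39 to 34.95 in PGC mice. Rnf43 was at 3.84, 3.92 and 2.97 FPKM in the controls and 7.43, 5.63 and 14.75 in PGC mice, without overlap (log2 change 1.07 ± 0.30 SE, limma adjusted p = 0.0872). Lgr5, a stem cell marker, was at 0.91 to 1.78 FPKM in the controls and 3.80, 2.34 and 13.51 in PGC mice. Both ligase genes and Lgr5 are known targets of beta-catenin.

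The leading genes of the 2 antagonist families stood on opposite sides. Sfrp1, the most abundant gene of these families in control corpus, was at 20.52, 18.02 and 23.27 FPKM in the controls and 16.73, 11.88 and 14.40 in PGC mice. Every PGC library was below every control (log2 change -0.50 ± 0.16 SE, limma adjusted p = 0.0972), and the change was -0.80 after median-of-ratios scaling. Sfrp1 lies on chromosome 8, 23411502 to 23449632, plus strand.

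Sfrp5 was at 2.09, 1.93 and 2.20 FPKM in the controls and 2.17, 2.09 and 0.62 in PGC mice. Only replicate 6 was low, as for Fzd4. Sfrp2 was at 1.22 to 2.43 FPKM in controls and 0.82 to 1.76 in PGC mice, and Sfrp4 at 0.32 to 0.61 and 0.37 to 0.63. Frzb was at 0.28, 0.13 and 0.28 FPKM in the controls and 0.61, 0.17 and 2.17 in PGC mice. None of these 4 separated the groups.

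Several lists of other cell types held genes that were lower in PGC mice like Rspo3, Sfrp1 and Wnt9a, and in that of the muscle wall every gene was lower. All 10 smooth muscle markers were lower in every PGC library than in every control, with a median log2 change of -1.19 and 0 passing over all genes. Their sum was 2380 to 4219 FPKM in controls and 1082 to 1574 in PGC mice. As a percentage of the control mean, replicates 4 to 6 had 50.4%, 44.2% and 34.6% for that sum. Rspo3 had 57.1%, 48.3% and 47.4%, Sfrp1 had 81.2%, 57.7% and 69.9%, and Wnt9a had 74.1%, 55.2% and 39.3%. Among the controls, replicate 3 was highest for the muscle sum, Rspo3 and Sfrp1, and replicate 1 for Wnt9a. Of 6 adipocyte markers, 4 were lower without overlap, and Cfd and Adipoq fell over all genes (log2 changes of -3.27 and -2.10, limma adjusted p = 0.00908 and 0.0103). In that list the sums were 86.47 to 122.1 FPKM in controls and 31.86 to 69.34 in PGC mice. Another 7 genes were read for telocytes and trophocytes, stromal cells next to the glands. Of these, Pi16 fell (log2 change -1.14, limma adjusted p = 0.0269) and Cd34 was lower without overlap, while Foxl1 and Bmp4 were higher without overlap. Sums of the 7 genes were 41.53 to 50.02 FPKM in controls and 34.48 to 40.77 in PGC mice. Which cells held their RNA was not tested. Of 8 enteric neuron and glia markers, 5 were lower without overlap, with sums of 15.86 to 23.31 FPKM and 9.90 to 21.35. Replicate 3 was also the highest control for the adipocyte, the telocyte and trophocyte, and the enteric sums. The 8 fibroblast markers were mixed: Dpt was lower in every PGC library, Col1a1, Col1a2 and Pdgfra were higher in every one, and the sums were 292.8 to 299.9 FPKM in controls and 281.1 to 419.2 in PGC mice. The part of any of these cell types in the values of Rspo3, Sfrp1 and Wnt9a was not tested.

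**Figure D4:**
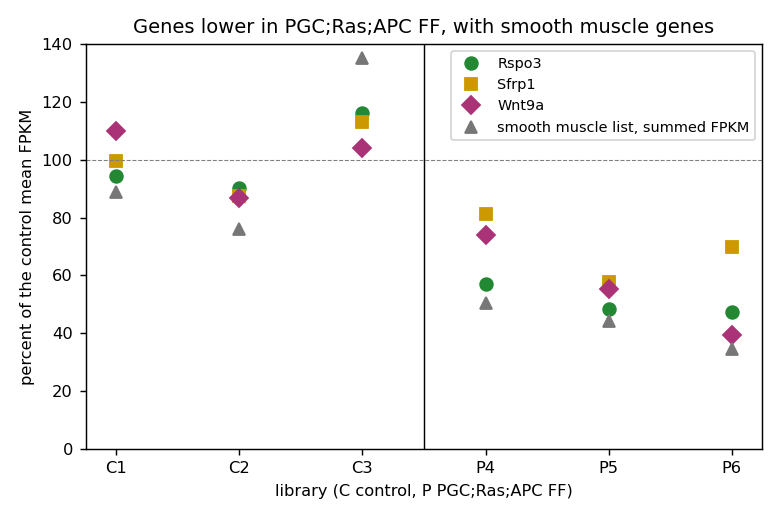
FPKM of Rspo3, Sfrp1 and Wnt9a and the summed FPKM of 10 smooth muscle markers, each as a percentage of its control mean, in the 6 libraries (C control, P PGC;Ras;APC FF). All 4 series lie below every control in the 3 PGC libraries, and the muscle sum in replicate 6 is the lowest point at 34.6%.

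Within the Dkk family, Dkk4 showed the clearest on-off pattern. It was listed at 0 FPKM in all 3 controls and at 2.83, 0.84 and 1.76 in PGC mice, with replicate 4 the highest. It lies on chromosome 8, 22624043 to 22627547, plus strand. With 2 libraries at 1 FPKM or more it did not meet the filter, and without a filter the log2 change was 1.43 ± 0.25 (SE; limma adjusted p = 0.137).

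Dkk2 was at 0.38, 0.28 and 0.58 FPKM in the controls and 3.02, 0.70 and 7.99 in PGC mice. The groups did not overlap, but replicate 5 was only just above the highest control. Without a filter the log2 change was 1.49 ± 0.57 (SE; limma adjusted p = 0.174). Dkk3, a divergent member that does not act on the co-receptors like the others, was at 8.07, 8.68 and 9.55 FPKM in the controls and 17.38, 9.50 and 39.45 in PGC mice. Replicate 5 lay within the control range, so the groups overlapped (log2 change 1.02 ± 0.42 SE, limma adjusted p = 0.132). Without replicate 5 Dkk3 passed (log2 change 1.48, limma adjusted p = 0.0431), and without replicate 6 the change was 0.51 (limma adjusted p = 0.156). Dkk1 was listed at 0 in 5 libraries and at 0.01 FPKM in replicate 4.

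**Figure D5:**
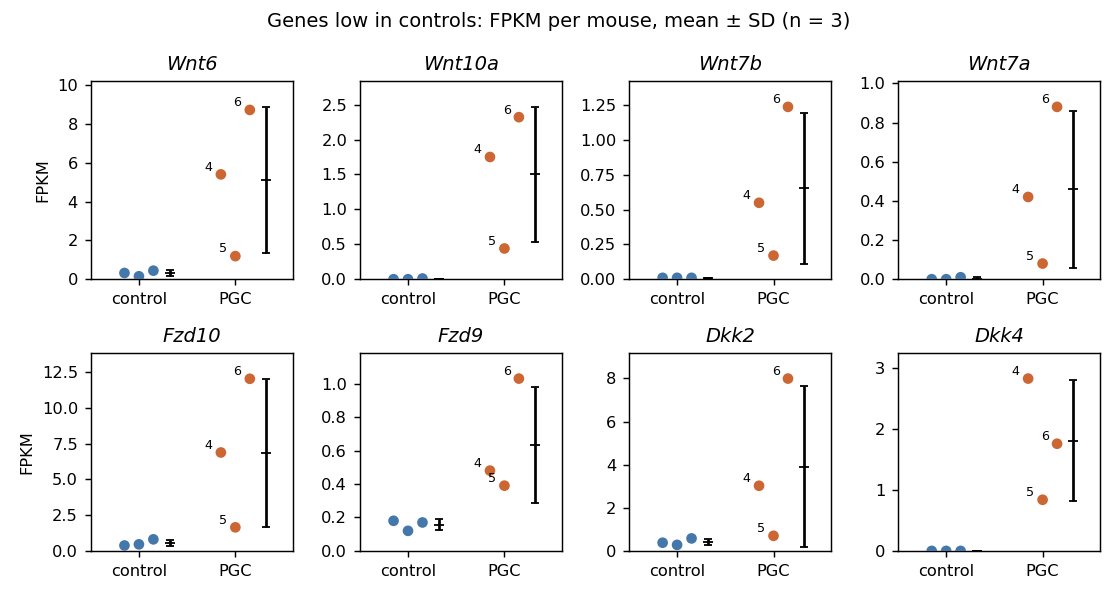
FPKM per mouse of 8 members that were low in controls (blue, 3 control mice; orange, 3 PGC;Ras;APC FF mice with replicate numbers; black, mean ± SD, n = 3), each panel with its own axis from 0. Replicate 6 is highest in all panels except Dkk4, where replicate 4 is, and replicate 5 is lowest in all 8.

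The order of the PGC libraries was shared by most members that stood higher. Counting all 46, 17 were higher in every PGC library than in every control and 3 were lower (37% and 6.52%, against 31.9% and 5.65% of all 18988 rows). In 13 of the 17 the PGC libraries ran from replicate 5 through 4 to 6. Replicate 5 was lowest in 15 of them and replicate 6 highest in 15. The median FPKM of all tested genes had the same order, at 7.94, 7.67 and 10 in replicates 4 to 6. How many of all higher rows had this order was not counted. Of 12 beta-catenin target genes looked at, 9 had this order too, and Ascl2, Myc and Sox9 did not. Axin2, a feedback gene of the pathway, was at 1.22, 1.15 and 0.94 FPKM in the controls and 12.48, 4.08 and 25.41 in PGC mice. Of the 12 targets, 11 were higher in every PGC library than in every control, against 31.9% of all 18988 rows. The 10 tested targets had a median log2 change of 1.63, and 0 passed over all genes. They come from the same 6 mice, so the shared order is a description and no test of a link.

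Among other secreted or membrane antagonists, Notum, Wif1 and Apcdd1 had larger log2 changes than any tested member. Of 9 such genes 5 were tested, and 2 rose over all genes: Notum, which removes the Wnt lipid (log2 change 6.12 ± 0.60 SE, limma adjusted p = 0.0119), and the Wnt-binding Wif1 (5.14 ± 0.46, limma adjusted p = 0.0103). Both were below 1 FPKM in every control, so the filter itself required a difference. In PGC replicates 4 to 6 Notum was at 83.61, 29.55 and 219.93 FPKM, well above Sfrp1 and Dkk3 in replicates 4 to 6. Igfbp4, the most abundant of the 9 in controls, was at 57.33, 40.89 and 59.03 FPKM there and at 126.03, 71.36 and 243.97 in PGC mice (log2 change 1.31, limma adjusted p = 0.0925). Apcdd1 was at 2.02, 2.09 and 1.74 FPKM in the controls and 19.79, 6.38 and 34.92 in PGC mice (log2 change 2.58, limma adjusted p = 0.085). Sostdc1 was on the lower side (log2 change -0.52, limma adjusted p = 0.561), with 1.97 FPKM in replicate 6 and 8.11 to 17.87 in the other 5 libraries, and the groups overlapped.

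Wnt10a and Wnt7b are known from squamous epithelium such as skin, and the stomach has a squamous part, so its markers were read in the same libraries. Krt5, Krt14 and Trp63 reached at most 0.10, 0.22 and 0.01 FPKM in any library. The 6 squamous markers summed to 0.33 to 1.13 FPKM in controls and 3.41 to 5.70 in PGC mice, most of it Krt13 (2.34, 3.01 and 4.63 FPKM in replicates 4 to 6). Krt4 was listed at 0 to 0.01 FPKM over the controls and at 0.37, 0.10 and 0.33 in replicates 4 to 6, and Lor at 0.08 to 0.23 and 0.38, 0.50 and 0.63. Krt13, Krt4 and Lor were thus higher in every PGC library. Replicate 5 was the lowest PGC library for Krt4, as for Wnt6, Wnt10a, Wnt7a and Wnt7b, and not for Krt13 or Lor. The 6 immune markers summed to 18.07 to 22.18 FPKM in controls and 21.35 to 49.34 in PGC mice. Ptprc, Cd3e and Cd79a were higher in every PGC library than in every control, and all 6 immune markers had the order of replicate 5, 4, 6. The part of squamous or immune cells in the higher members was not tested.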

How the data were processed

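The authors deposited 1 table of FPKM values, rounded to 2 decimals, with 18988 rows named by gene symbol. Per the submitters' processing notes, STAR and featureCounts were used with mm10 as the genome build. Their versions, the annotation, the strand setting and the formula of the FPKM are not given in these sources. Per the labels' protocols, total RNA of the corpus was extracted with a column kit and a DNase step and sequenced at BGI.

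FPKM are not counts, so log2(FPKM + 1) was modelled in limma 3.58.1 (R 4.3.3) by genotype alone, with a mean-variance trend and two-sided tests. Genes with at least 1 FPKM in at least 3 of 6 libraries were tested, with Benjamini-Hochberg adjustment over all 11857. The fit was tested on simulated data first. Separate mice are the replicates, and the read depth is unknown, so no counting interval is given. Members were read from this fit. All were accounted for, and log2 changes were given where the unadjusted p was under 0.05 or the groups did not overlap, and for some others as values. Coordinates come from GENCODE M21 (GRCm38, the assembly of mm10) by symbol, and start site windows from RefSeq (GRCm38.p6). Members, lists and naming rule were chosen with earlier results of these data known. Alternatives were 2 pseudocounts, 2 filters, 2 scalings, 2 other limma settings, and each library left out in turn.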

Additional observations from a re-analysis of the deposited data

How the results depend on the processing

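The count of members past the threshold was 0 with all 6 libraries under the other pseudocounts, filters and scalings and without the trend. It was 10 (9 higher and 1 lower) when limma weighted the libraries by their spread. That weighting gave replicate 6 a weight of 0.133 and replicate 4 one of 3.55, stopped before its tolerance was reached, and called 29.7% of all tested genes higher and 3.11% lower. Leaving out 1 library gave 0 to 3 members. Without replicate 5 these were Dkk3, Wnt4 and Wnt5a (3.54% of all tested genes were called higher). Without replicate 6 they were Lrp5 and Wnt5a higher and Rspo3 lower (7.17% and 0.914%). They were the same 3 when the filter was kept over all 6 libraries. Without replicate 1, 2, 3 or 4 the count was 0. The number of tested members whose groups did not overlap was 12, and lay between 10 and 15 under the alternatives.

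No log2 change of the 13 members with full statistics changed sign under any alternative that could be fitted. For the 12 of them whose groups did not overlap, only the 2 scalings could have turned the sign, so the other alternatives are no check of direction. The log2 change of Fzd10 ran from 1.57 to 3.08, that of Wnt6 from 1.53 to 3.37 and that of Rspo3 from -0.93 to -0.58. Fzd10, Wnt6 and Wnt9a had fewer alternatives (12 in place of 15), because they missed the filter in some fits with a library left out. The sign of 5 other members (Fzd3, Fzd5, Fzd7, Fzd8 and Wls) turned under both scalings. No paired analysis was possible because the labels number the mice 1 to 6 with no number shared between the groups. With 3 mice per group and unknown depth, members below 1 FPKM cannot be ranked by size of change.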

Other observations

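Other Wnt receptors and receptor partners were read beside the Frizzled genes. Of 10 such genes with a row, 8 were tested, 7 had a positive log2 change (as did 80.6% of all tested genes) and 0 passed. Ptk7, a co-receptor of planar cell polarity, was at 3.16, 3.36 and 3.13 FPKM in the controls and 7.75, 4.65 and 18.55 in the PGC;Ras;APC FF mice, without overlap (log2 change 1.23, limma adjusted p = 0.0954). Tspan12, a partner of Fzd4 in norrin signalling, was at 2.94, 3.19 and 3.34 FPKM in the controls and 9.47, 4.78 and 22.65 in the PGC;Ras;APC FF mice (log2 change 1.44, limma adjusted p = 0.092). Its pattern was thus unlike that of Fzd4, which was lowest in replicate 6. Ryk, a Wnt receptor of the tyrosine kinase class, was at 14.87 to 17.38 FPKM and 16.76 to 23.73, and Ror2, a receptor of Wnt5a, at 2.37 to 3.43 and 1.94 to 6.80. Both overlapped between the groups, while Wnt5a did not.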
